A study of Homo sapiens with 3 samples.

Results

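The genes described here make and load HLA class I molecules, and they are HLA-B, HLA-C, HLA-E, HLA-F, B2M, TAP1, TAP2, TAPBP and NLRC5. They were chosen by name and matched by Ensembl ID to GENCODE 29, and all 9 were among the 15808 genes of the count table. RNA sequencing covered 3 replicate libraries of OCI-Ly10, an established line of human diffuse large B cell lymphoma, treated for 6 h with MZ1, which joins a BET protein ligand to a ligand of the VHL ubiquitin ligase. All libraries carried the same treatment at the same time, so the values are levels in treated cells of 1 line and their spread, with no estimate of what MZ1 did, and untreated cells were not analysed here. Whether the 3 replicates came from separate cultures is not stated in the labels, so each p-value reflects the spread among these libraries alone, and that spread may be technical. A TRIzol extract of total RNA was the input to an Illumina TruSeq RNA kit.

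HLA class I molecules display peptides from inside the cell to CD8 T cells. A heavy chain (HLA-B, HLA-C and, among the less variable chains, HLA-E and HLA-F) pairs with beta-2-microglobulin, encoded by B2M. TAP1 and TAP2 form the transporter that brings peptides into the endoplasmic reticulum, tapasin (TAPBP) bridges the transporter and the empty heavy chain, and NLRC5 is a transcriptional activator of these genes. Interferon-gamma raises the whole set in most cells, and loss of class I display is known in diffuse large B cell lymphoma.

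The promoters are shown because NLRC5 and interferon act there and because the members range from very high counts to no count. RefSeq promoter windows (GRCh38.p14, 300 bases around a transcription start) were found for 7 of the 9 genes. These letters come from the reference genome, not from OCI-Ly10. Capitals mark the core of the interferon-stimulated response element (ISRE), searched as GAAA, any 2 bases and GAAA on either strand, and in HLA-B an NF-kB-like match, searched as GGGA, any 3 bases and CCC. TAP1 has a second, downstream window, which holds none of the motifs searched and is not shown. The window of HLA-C holds neither of the marked motifs and is not shown either. Matches in B2M, TAP1 and TAPBP overlap each other, as do those in HLA-B.
HLA-B promoter, chr6:31357130-31357429, minus strand: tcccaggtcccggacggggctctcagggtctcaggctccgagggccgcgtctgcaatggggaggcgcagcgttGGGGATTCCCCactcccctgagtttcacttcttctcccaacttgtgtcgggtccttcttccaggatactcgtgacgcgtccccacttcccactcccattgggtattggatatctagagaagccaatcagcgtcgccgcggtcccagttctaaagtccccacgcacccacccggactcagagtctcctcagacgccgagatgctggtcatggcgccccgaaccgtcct
HLA-F promoter, chr6:29723184-29723483, plus strand: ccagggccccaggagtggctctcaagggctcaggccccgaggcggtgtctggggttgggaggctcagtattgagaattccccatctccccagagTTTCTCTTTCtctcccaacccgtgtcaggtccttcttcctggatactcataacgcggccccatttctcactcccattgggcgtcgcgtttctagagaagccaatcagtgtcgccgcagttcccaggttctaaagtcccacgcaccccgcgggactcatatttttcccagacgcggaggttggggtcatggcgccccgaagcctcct
B2M promoter, chr15:44711267-44711566, plus strand: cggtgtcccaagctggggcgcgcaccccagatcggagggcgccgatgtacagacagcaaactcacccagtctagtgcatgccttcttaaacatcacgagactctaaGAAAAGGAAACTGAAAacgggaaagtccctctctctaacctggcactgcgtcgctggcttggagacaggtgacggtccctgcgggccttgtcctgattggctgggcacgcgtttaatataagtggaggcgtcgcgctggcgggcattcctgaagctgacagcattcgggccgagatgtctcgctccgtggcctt
TAP1 promoter, chr6:32853655-32853954, minus strand: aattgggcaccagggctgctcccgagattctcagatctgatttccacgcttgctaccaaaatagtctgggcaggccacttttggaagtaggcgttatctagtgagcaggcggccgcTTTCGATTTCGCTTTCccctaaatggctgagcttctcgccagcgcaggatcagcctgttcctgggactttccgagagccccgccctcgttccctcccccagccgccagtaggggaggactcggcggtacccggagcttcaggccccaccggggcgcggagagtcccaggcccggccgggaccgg
TAP2 promoter, chr6:32838690-32838989, minus strand: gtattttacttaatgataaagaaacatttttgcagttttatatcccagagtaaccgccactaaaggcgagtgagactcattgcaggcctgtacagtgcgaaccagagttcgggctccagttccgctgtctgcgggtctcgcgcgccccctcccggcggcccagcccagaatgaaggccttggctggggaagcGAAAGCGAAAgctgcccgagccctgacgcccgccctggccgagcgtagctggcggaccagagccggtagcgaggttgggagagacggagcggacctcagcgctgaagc
TAPBP promoter, chr6:33314029-33314328, minus strand: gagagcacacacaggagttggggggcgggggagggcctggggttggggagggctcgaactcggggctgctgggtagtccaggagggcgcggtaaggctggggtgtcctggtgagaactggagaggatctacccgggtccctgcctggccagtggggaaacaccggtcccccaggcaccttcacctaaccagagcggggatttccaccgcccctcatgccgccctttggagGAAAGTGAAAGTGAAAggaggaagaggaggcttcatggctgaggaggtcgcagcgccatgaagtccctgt

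The ISRE core was found in the windows of HLA-F, B2M, TAP1 (the window shown), TAP2 and TAPBP. It was present in 3.57% of all 35116 windows of this length. The NF-kB-like pattern searched was found in HLA-B, against 7.59% of all windows, and in none of the other members' windows. That pattern is narrow and other forms of the NF-kB site were not searched. Its absence from a window therefore does not show that no such site is there. CCAAT, the core of the Y box, was found in the windows of HLA-B, HLA-C, HLA-F, B2M and TAP1 (the window shown), against 34.6% of all windows. TGACG, the core of the cAMP response element, was found in those of HLA-B, HLA-C, B2M and TAP2, against 24.6%. The motifs were read on both strands and describe letters only. The 5 genes with the ISRE core include both genes with no count, TAP1 and TAP2, and B2M, the member with the most counts.

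The libraries held 5474462, 1441246 and 1314812 counts in replicates 1, 2 and 3, and 1 count was worth 0.20, 0.629 and 0.767 CPM (counts scaled to a common library size with TMM factors). The B cell markers MS4A1, CD79A, CD79B, PAX5 and CD22 all reached 1 CPM in every library, with summed levels of 1531, 1074 and 1864 CPM, and 4 of these 5 were lowest in replicate 2. Of the T cell markers 2 of 6 could be analysed, CD2 and CD5, with summed levels of 18.8, 0.629 and 2.30 CPM, and CD2 had 7, 0 and 0 counts. Of the myeloid markers 3 of 6 summed to 31.0, 24.5 and 23.8 CPM, and of the stromal markers 2 of 5 summed to 8.40, 2.51 and 5.37 CPM. NK cell markers were not analysed here. The part of other cells in the class I levels was not tested.

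B2M and HLA-E carried nearly all class I signal, while TAP1 and TAP2 had no count in any library. The 9 genes together took 0.308% of the counts of replicate 1 (exact Clopper-Pearson 95% interval 0.304 to 0.313%), 0.144% of replicate 2 (0.138 to 0.151%) and 0.254% of replicate 3 (0.246 to 0.263%). B2M alone made up 78.7%, 80.4% and 75.8% of those counts and HLA-E 15.3%, 14.0% and 18.2%. The remaining genes held 6.01%, 5.63% and 5.95%. The shares of B2M, of HLA-E and of the summed remaining genes thus moved little. The total of the 9 genes in replicate 2 lay below that of the other libraries. Within the remaining genes the makeup was less stable. The log2 ratio of HLA-B to HLA-C per kb of exon was 0.64, 1.13 and -0.63 in replicates 1, 2 and 3. HLA-C had only 4 counts in replicate 2. At least 1 CPM in every library was reached by 7 of the 9 genes, beside 68.0% of the table. All intervals and limits were computed from the counts of each library and describe counting error alone. They treat the counts as independent, which was not tested, and reads were not tied to single molecules by identifiers.

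**Figure D1:**
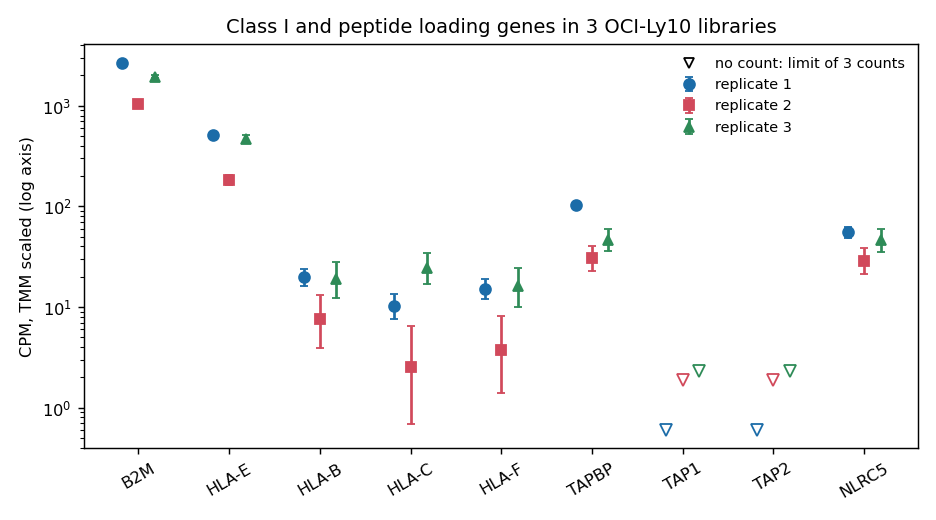
CPM (log axis) of the 9 genes in replicates 1, 2 and 3, with exact Poisson 95% intervals as bars, which are hidden by the symbol where the count is high. Open triangles stand for no count and are drawn at the limit of 3 counts; each of the 7 measured genes is lowest in replicate 2, and TAP1 and TAP2 have triangles only.

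B2M, the shared light chain (ENSG00000166710.16, chromosome 15, 44711487 to 44718877, plus strand), had 2654, 1049.6 and 1945 CPM in replicates 1, 2 and 3. Its mean of 1883 ± 804 CPM (SD, n = 3, as for all means below) lay above 99.6% of the genes in the table. Replicate 1 was 2.53-fold and replicate 3 1.85-fold above replicate 2. None of the 50-base windows of its longest transcript occurs in a transcript of another annotated gene.

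HLA-E, the heavy chain that presents leader peptides of other class I chains to NK cell receptors (ENSG00000204592.8, chromosome 6, 30489467 to 30494205, plus strand), had 517, 183 and 468 CPM. Replicates 1 and 3 were close and replicate 2 was 2.83-fold below replicate 1. Its mean of 389 ± 180.4 CPM made it the highest heavy chain gene described here. Of its 50-base windows 5.76% also occur in another gene.

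HLA-B, a classical heavy chain (ENSG00000234745.8, chromosome 6, 31269491 to 31357188, minus strand), had 99, 12 and 25 counts, or 19.8, 7.54 and 19.2 CPM. HLA-C, the other classical chain described (ENSG00000204525.13, chromosome 6, 31268749 to 31272130, minus strand), had 51, 4 and 32 counts, or 10.2, 2.51 and 24.5 CPM. HLA-B was thus level between replicates 1 and 3, while HLA-C was highest in replicate 3, and its mean of 12.4 ± 11.2 CPM fell to 6.38 without replicate 3. HLA-F, a chain that is mostly held inside the cell (ENSG00000204642.12, chromosome 6, 29722775 to 29738528, plus strand), had 76, 6 and 21 counts, or 15.2, 3.77 and 16.1 CPM. In replicate 2 these 3 genes rest on 12 counts or fewer, and the Poisson 95% interval of HLA-C there runs from 0.685 to 6.44 CPM.

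Class I heavy chain genes are highly polymorphic, and the counts rest on alignment to a reference genome. Of the 50-base windows of the longest transcript, 21.0% in HLA-B, 6.88% in HLA-C and 41.7% in HLA-F also occur in a transcript of another gene on either strand. For windows of 100 bases the shares were 12.2%, 0.225% and 31.8%. Most shared windows of HLA-B lie opposite the pseudogene AL671883.2, whose exons overlap 542 bases of HLA-B on the other strand, and HLA-F exons overlap genes of the other strand over 1236 of 4342 bases. HLA-B and HLA-C share 35 exonic bases on the same strand. Whether counting used the strand is not stated, so reads of such overlaps cannot be told apart, and the part of alleles and shared sequence in the low counts was not tested.

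Levels of different genes were compared per kb of merged exon. B2M had 309.7 ± 132 CPM per kb, HLA-E 131 ± 60.6, TAPBP 11.9 ± 7.41, HLA-B 5.08 ± 2.26, HLA-C 4.95 ± 4.46, NLRC5 3.51 ± 1.08 and HLA-F 2.69 ± 1.58 CPM per kb. The order from B2M to HLA-E to TAPBP to HLA-B was the same in 3 of 3 libraries, with log2 ratios between neighbours of 1.28 ± 0.24, 3.50 ± 0.51 and 1.13 ± 0.54 (exact permutation p = 0.25 for each, 0.50 after adjustment over the 6 neighbour pairs). The neighbours were paired by their mean levels in these same libraries, so the p-values give no independent support for the order. Below HLA-B the order was not stable. HLA-B lay above HLA-C in 2 of 3 libraries (0.38 ± 0.91), HLA-C above NLRC5 in 1 of 3 (0.12 ± 1.21) and NLRC5 above HLA-F in 2 of 3 (0.52 ± 0.67), so these neighbours did not differ beyond their spread. With the length of the longest transcript the first 4 places were unchanged, while HLA-F rose to the fifth place and NLRC5 fell to the last.

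Ratios within a library were computed for 10 pairs chosen by role, of which 7 had counts in both genes. With 3 libraries the smallest p of the exact permutation test used (sign flips, two-sided) is 0.25, so no pair could pass 0.05. Per kb, B2M lay above HLA-B by a log2 ratio of 5.90 ± 0.23, or 59.8-fold, and was higher in every one of the 3 libraries (exact permutation p = 0.25, 0.35 after Benjamini-Hochberg adjustment over 7 pairs). HLA-C over HLA-E had a log2 ratio of -5.00 ± 0.90, with HLA-E 32.1-fold higher and above HLA-C in each library (exact permutation p = 0.25, adjusted 0.35). HLA-E lay above HLA-F by 5.64 ± 0.31, or 49.9-fold, again in each library (exact permutation p = 0.25, adjusted 0.35). The size of this ratio depended on the length used, and it was 4.43 with the longest transcript. The nonclassical HLA-E thus stood far above the other heavy chains measured. The 2 classical chains were not separated, with HLA-B above HLA-C by 0.38 ± 0.91 (exact permutation p = 0.50, adjusted 0.58) and by 0.0039 without replicate 2.

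TAPBP, the tapasin gene (ENSG00000231925.10, chromosome 6, 33299694 to 33314387, minus strand), had 102, 30.8 and 46.8 CPM in replicates 1, 2 and 3. It was highest in replicate 1, its mean was 59.9 ± 37.5 CPM, and no exon base overlaps another gene. TAPBPL, a tapasin relative that edits peptides outside the transporter complex, had 3.80, 5.03 and 8.44 CPM. Per kb TAPBP lay above TAPBPL by a log2 ratio of 2.50 ± 1.23, positive in each library (exact permutation p = 0.25, adjusted 0.35), and by 1.79 without replicate 1.

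NLRC5, the class I activator (ENSG00000140853.14, chromosome 16, 56989485 to 57083531, plus strand), had 55.4, 28.9 and 46.0 CPM. Its spread on the log2 scale (SD 0.48) was the smallest of the 7 measured genes. CIITA, its relative that activates class II genes, had 90.4, 86.7 and 75.2 CPM. Per kb, NLRC5 and CIITA were not separated, at a log2 ratio of -0.25 ± 0.50 (exact permutation p = 1) that turned to 0.24 with the longest transcript as length and to 0.044 without replicate 2. The ratio was 0.043 in replicate 1, -0.82 in replicate 2 and 0.043 in replicate 3, so replicate 2 set the mean.

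TAP1 (ENSG00000168394.10, chromosome 6, 32845209 to 32853978, minus strand) and TAP2 (ENSG00000204267.12, chromosome 6, 32821833 to 32838780, minus strand) had 0, 0 and 0 counts. No count in any library was found for 551 of 15808 genes (3.49%). The limit that no count sets, taken as 3 counts per library, is 0.60 CPM in replicate 1, 1.89 in replicate 2 and 2.30 in replicate 3. Against that limit TAPBP was at least 162-fold, 15.5-fold and 19.3-fold higher per kb than TAP1 in replicates 1, 2 and 3, and at least 215-fold, 20.6-fold and 25.7-fold higher than TAP2. The bound is tightest in replicate 1, which was sequenced most deeply. It is a bound on RNA only if reads of TAP1 and TAP2 could be mapped and counted, which was not tested. TAP1 exons overlap the antisense gene PSMB8-AS1 over 456 of 4805 bases and TAP2 exons overlap the protein-coding gene AL669918.1, on the same strand, over 2064 of 6390, which leaves 4349 and 4326 bases free of any other exon. In the longest transcripts 84.8% of the 50-base windows of TAP1 and 64.2% of those of TAP2 occur in no other gene.

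The genes around TAP1 and TAP2 shared the absence of counts, a pattern singled out after the values were seen. From HLA-DRA to TAP1, a stretch of 419.7 kb on chromosome 6 (32439842 to 32859585), 15 genes of the table held 0, 3 and 20 counts in all in replicates 1, 2 and 3. Of these 15 genes 11 had no count in any library, among them PSMB8 and PSMB9, which encode the immunoproteasome subunits that lie between and beside the TAP genes, and the class II genes HLA-DQA1, HLA-DQB1 and HLA-DOB. The counts that were seen fell on HLA-DRA (0, 2 and 12), HLA-DRB5 (0, 0 and 4), HLA-DRB1 (0, 0 and 4) and PSMB8-AS1 (0, 1 and 0). The 12 genes after TAP1 held 5546, 1140 and 1451 counts, and the first of them, HLA-DMB, had 116, 49 and 66. The 12 genes before HLA-DRA held 666, 91 and 171 counts, with 0 in each library for the last of them, HCG23, and 114, 6 and 29 for GPSM3. TAPBP lies beyond the stretch on the same chromosome and HLA-B and HLA-C before it, all with counts. Along the autosomes and the X chromosome, consecutive genes of the table without a count formed runs of at most 8, and 1 of the 2 runs of 8 was that from HLA-DQA1 to PSMB8. The cause of the absence was not tested.

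**Figure D2:**
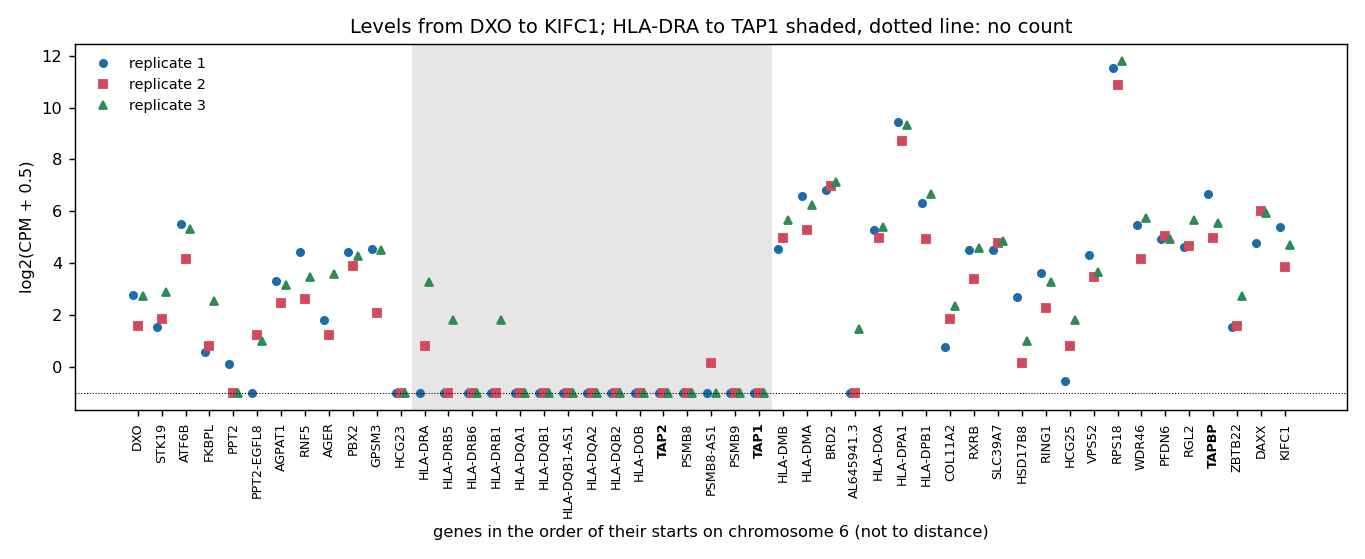
Log2(CPM + 0.5) of the genes of the count table in the order of their starts on chromosome 6, not spaced by distance, with replicates 1, 2 and 3 as circles, squares and triangles. The shaded genes from HLA-DRA to TAP1 lie on or near the dotted line of no count (0, 3 and 20 counts in all), while levels rise again at HLA-DMB; TAP2, TAP1 and TAPBP are in bold.

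Each of the 7 genes with counts was lowest in replicate 2, and 5 of them peaked in replicate 1, where 43.1% of genes with a mean of 10 CPM or more peaked. All 7 were also lowest there with DESeq2 size factors, column totals and the deposited log2 values. Among all genes of at least 10 CPM, 40.5% were lowest in replicate 2 with TMM, and 37.3%, 31.4% and 31.7% with the other scalings. The median log2 difference of replicate 2 from replicate 1 was -1.34 over the 9 genes, with TAP1 and TAP2 at 0, and -1.50 over the 7 genes with counts, beside -0.14 over all genes of at least 10 CPM. For replicate 3 against replicate 1 the median was -0.04 over the 9 genes and -0.14 over the 7 with counts, beside -0.07 over all genes. Column totals moved the median of all genes for replicate 2 against 1 to 0.13 and that of the 9 genes to -1.07.

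By a chi-square test of the counts of the 3 libraries against equal expression (Benjamini-Hochberg adjustment over all genes tested, at 0.05), 7 of the 7 members tested varied between libraries. Of all 10016 genes tested 67.2% varied, so most genes did. The adjusted p was 4.54e-66 for HLA-E, 4.06e-21 for TAPBP, 3.25e-07 for HLA-C, 0.000344 for NLRC5, 0.00269 for HLA-F and 0.00789 for HLA-B, and that of B2M was too small to be held as a number. These values depend on the number of counts and do not rank the genes by size of change. Replicate 1 was 2.83-fold above replicate 2 for HLA-E and 2.62-fold for HLA-B, which has far fewer counts. The median SD of log2(CPM + 0.5) was 0.83 over these 7 genes and 0.53 over all genes tested. Without replicate 2 only HLA-C, B2M and TAPBP varied, 3 of 7 beside 45.2% of all genes. Without replicate 1, TAPBP and NLRC5 no longer did, which left 5 of 7 beside 33.8%. All 7 varied without replicate 3 (beside 56.2%) and with libraries thinned to the smallest total (63.0%), and all 4 with a mean count of at least 50 did (81.1%). TAP1 and TAP2 could not be tested.

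GC content moved with the differences between libraries. Genes of at least 10 CPM were divided by GC content into 8 bins of equal size. In the bin of highest GC (median 61.0%) the median log2 difference of replicate 2 from replicate 1 was -1.37, and in the bin next to it (56.0%) it was -0.78. The longest transcripts of HLA-B, HLA-C, HLA-E, HLA-F, TAPBP and NLRC5 have 54.8% to 62.7% GC and belong to these bins. HLA-B, at -1.34, differed from the median of its bin by 0.034, and NLRC5, at -0.93, by -0.15. The differences from the bin median were -0.72 for HLA-E, -1.10 for HLA-F, -0.93 for TAPBP and -0.46 for HLA-C. B2M has only 40.6% GC, in a bin whose median difference was 0.27, and its own difference was -1.34, lower than all but 3.74% of the genes of that bin. With each gene set against its own bin, 6 of 7 genes were below the median in replicate 2 against 1, and the median over the 7 genes with counts was -0.72, beside -1.50 without this centring. For replicate 3 against 1 the centred median over these 7 genes was 0.11, beside -0.14 without centring. The part of GC content in the level of each gene was not tested further.

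**Figure D3:**
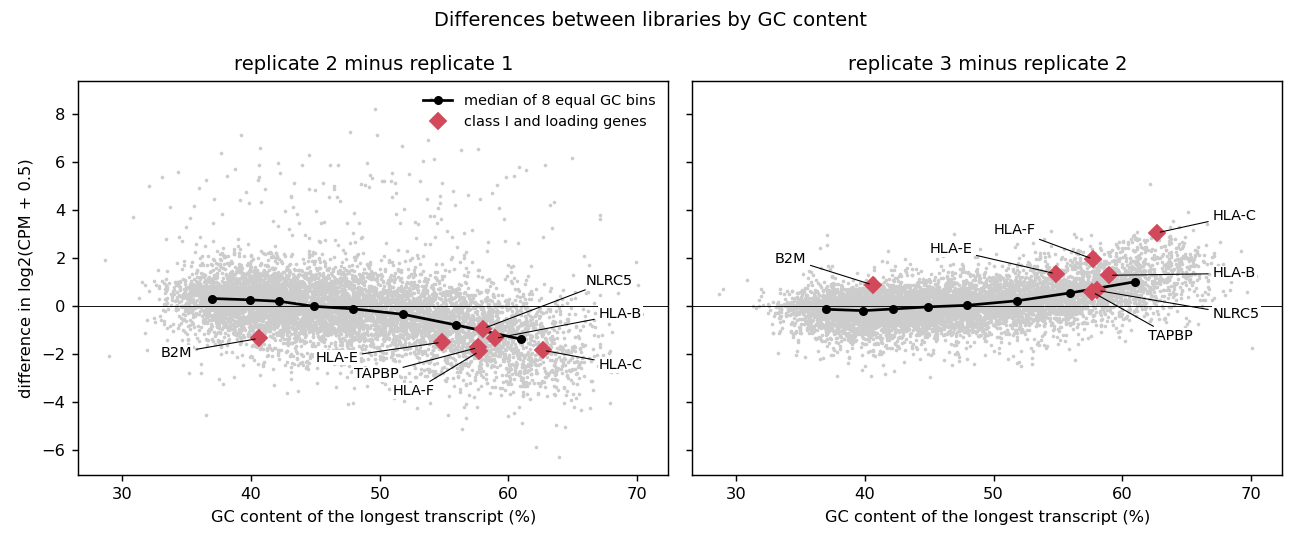
Difference in log2(CPM + 0.5) between libraries against the GC content of the longest transcript, for genes of at least 10 CPM (grey), the medians of 8 equal bins (black) and the 7 measured class I and loading genes (red). In replicate 2 minus 1, HLA-B and NLRC5 sit near the line of bin medians, while B2M, at 40.6% GC and -1.34, lies far below it.

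The genes whose profiles over the 3 libraries were most like those of HLA-B and B2M were found among 2906 genes of at least 50 CPM. The measure was the root mean square distance of centred log2(CPM + 0.5) values, and with 3 libraries it describes little more than the height of replicate 2. Nearest to HLA-B were USF2 (0.017), ELMO1 (0.026) and LONP1 (0.030). Nearest to B2M were MRPL10 (0.00044), the proteasome subunit gene PSMB6 (0.0079) and PFN1 (0.027).

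The further steps of the pathway were read from lists chosen by role. In the list of loading and trimming genes 8 of 9 reached 1 CPM in every library. The chaperones CALR and CANX had 971 ± 254 and 1578 ± 673 CPM, and PDIA3, the partner of tapasin in the loading complex, 242 ± 49.0 CPM. The trimming enzymes ERAP1 and ERAP2 had 96.7 ± 28.0 and 107 ± 42.2 CPM, LNPEP, a related aminopeptidase, 99.7 ± 47.4 and UGGT1, which checks glycoprotein folding, 127 ± 23.1 CPM. TXNDC5 had 2, 0 and 0 counts, and 2658 of its 4387 exonic bases overlap another gene on the same strand. By the chi-square test 7 of 8 of these genes varied, beside 67.2% of all genes tested. PDIA3 was the 1 of 8 that was lowest in replicate 2, where 40.5% of genes with a mean of 10 CPM or more had their lowest level. CANX was highest there, with 967, 2299 and 1469 CPM.

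The immunoproteasome makes many of the peptides that TAP carries. PSMB8 and PSMB9 had no count, while their constitutive counterparts PSMB5 and PSMB6 had 304, 30 and 50 and 631, 80 and 121 counts. PSMB5 was therefore at least 172-fold, 17.0-fold and 28.3-fold higher per kb than PSMB8, and PSMB6 at least 446-fold, 56.6-fold and 85.6-fold higher than PSMB9, under the same condition as for TAP1. PSMB10, the third subunit, which lies on another chromosome, had 127, 0 and 5 counts, and its log2 ratio to PSMB7 per kb was -5.98 ± 3.04, negative in each library (exact permutation p = 0.25, adjusted 0.35), and -4.45 without replicate 2, where it had no count. PSMB10 shares 644 of 1853 exonic bases with another gene on the same strand. The assembly factor POMP and the activator subunits PSME1 and PSME2 had 338 ± 11.7, 328 ± 9.31 and 163 ± 93.7 CPM, and 2 of the 4 that could be tested varied, PSMB10 and PSME2, beside 67.2% of all genes tested.

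Among regulators of class I genes all 16 listed had a count, and 7 of 14 tested varied between libraries, beside 67.2% of all genes tested. By CPM per kb the highest were NFKB1 at 53.6, 39.0 and 29.8 in replicates 1, 2 and 3, RFX5, a subunit of the complex that recruits NLRC5, at 15.7 ± 5.09 and NFYA, a subunit of the factor that binds CCAAT, at 10.6 ± 6.18, and the lowest was JAK2 at 0.318 ± 0.168. NFKB1 was highest in replicate 1, while NFYA was lowest in replicate 1 at 17.0, 64.1 and 39.9 CPM. Of the 14 tested regulators 8 were lowest in replicate 2, beside 40.5% of genes with a mean of 10 CPM or more. Other class I-like genes were low, with 7 of 11 analysed. MICB, MICA and MR1, ligands for NK or T cell receptors, could be tested, and MICB and MR1 varied, 2 of 3 beside 67.2% of all genes tested. They had 3.10 ± 2.23, 1.51 ± 0.36 and 1.29 ± 0.59 CPM per kb, and CD1D had 1, 1 and 0 counts.

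**Figure D4:**
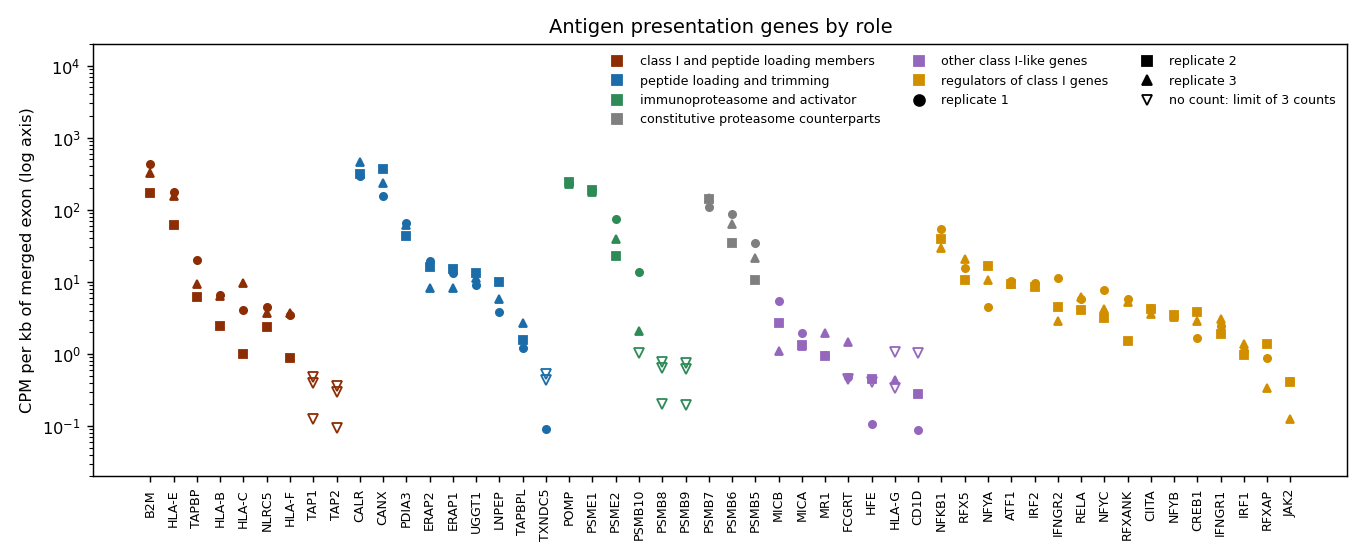
CPM per kb of merged exon (log axis) for the class I and loading genes and 5 lists of the same pathway, coloured by list and ordered by level within each, with replicates 1, 2 and 3 as circles, squares and triangles. Open triangles mark libraries with no count, at the limit of 3 counts; TAP1, TAP2, PSMB8 and PSMB9 have them in all 3 libraries, while loading chaperones and POMP reach levels near that of B2M.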

How the data were processed

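RNA sequencing of 3 OCI-Ly10 libraries (MZ1, 6 h) was analysed. The deposited raw counts per gene carry versioned Ensembl IDs. STAR, edgeR and hg38 are named per the submitters' processing notes; their versions, the counting tool, strand use and the annotation release are not stated there. The deposited log2 CPM values of the authors served as an alternative. Counts were scaled with TMM (edgeR 4.0.16, R 4.3.3; factors 0.914, 1.10 and 0.991), and log2 values are log2(CPM + 0.5). Symbols, exon lengths and overlaps came from GENCODE 29 (GRCh38), matched for 15668 IDs. CPM are not corrected for length unless given per kb. The chi-square test (Poisson, mean count of at least 10) compares libraries, not conditions. It was checked only on simulated Poisson counts without extra spread between libraries, so its level under such spread was not tested. No group comparison was possible.

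The members, lists, pairs and alternatives were chosen with earlier results of these data known. Named genes are the 9 members, both genes of each pair, all loading and trimming genes, the 3 highest and the lowest per kb of the other pathway lists, and the 3 profiles nearest to HLA-B and to B2M; the neighbours of TAP1 and TAP2 were added after their values were seen. Alternatives were DESeq2 1.42.0 size factors, column totals, deposited log2 values, other pseudocounts, filters and lengths, thinning, GC centring and leaving out each library. Some listed genes are not reported here, and the list counts leave them out.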

Additional observations from a re-analysis of the deposited data

How the results depend on the processing

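The levels of the 7 genes with counts moved by less than 1 SD under the scaling alternatives and with a library left out. With 3 libraries, leaving 1 out can hardly move a mean by 1 SD, so that check says little. TAP1 and TAP2 stayed at 0. The count of varying members stayed at 7 with DESeq2 size factors, column totals, no filter and thinned libraries. It was 4 of 4 tested with a mean count of at least 50, where fewer genes are tested, and 3 to 7 when a library was left out. Over all genes 6728 varied, and 2854 without replicate 1. Centred on GC bins, the median difference of replicate 2 from replicate 1 was -0.46 with TAP1 and TAP2 at 0. It was -0.72 over the 7 genes with counts, an alternative chosen after seeing the data. Over these 7 genes the median of replicate 3 against replicate 1 turned from -0.14 without centring to 0.11 with it. With TAP1 and TAP2 at 0 that median went from -0.04 to 0. The cause was not tested. The NLRC5/CIITA ratio turned to 0.24 with the longest transcript as length and ran from -0.39 to 0.044 with a library left out; the cause was not tested. The means of the other 6 pair ratios kept their sign under every alternative run. For HLA-B over HLA-C that sign means little, with 0.0039 without replicate 2 and -0.63 in replicate 3 itself. No paired analysis was possible because the samples form 1 group. Depth limits HLA-B, HLA-C and HLA-F in replicate 2 and the bounds on TAP1 and TAP2 in replicates 2 and 3.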
